A study of Mus musculus with 6 samples.

Results

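The glycolysis and hypoxia response genes described here are 39 listed symbols: glucose transporters, the enzymes from hexokinase to lactate dehydrogenase with the kinases beside them, and oxygen sensors and known targets of hypoxia-inducible factor. Of the 39, 37 had a probe set assigned to 1 gene in the annotation used, and each of these was represented by its probe set with the highest mean log2 value over the 6 arrays. SLC16A3 and CA9 were not analysed here. PFKFB4 and ALDOC had a mean log2 value under 4 and were not tested, so 35 members entered the tests, of 10271 genes tested and 19775 genes with such a probe set.

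The tumours were grown from NCI-H2228, a human lung adenocarcinoma line that carries an EML4-ALK fusion, under the skin of SCID mice, which lack functional T and B cells. The mice were given either vehicle or CH5424802 orally, the latter at 4 or at 20 mg/kg. This compound, now called alectinib, inhibits the ALK kinase. Tumours were taken 6 h after the dose. Each of the 3 groups has 2 arrays, all from 1 cell line and 1 time point. Whether the paired arrays are different animals is not stated in the labels, so each p-value reflects array-to-array spread that could be technical. No source used here gives the age or sex of the mice. The labels name mouse as the organism, whereas the probe sets are of human genes, and the effect of mouse transcripts on the values was not measured. In such bulk tumour RNA, fewer cells of a type and less RNA per cell cannot be told apart.

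Glycolysis splits glucose into pyruvate in the cytosol, and tumour cells often turn much of that pyruvate into lactate even where oxygen is present. Hypoxia-inducible factor is a transcription factor whose alpha subunit is hydroxylated by the EGLN enzymes and then degraded when oxygen is plentiful. When oxygen is short it activates genes for glucose uptake, most glycolytic steps, new vessels and mitophagy. Growth factor signalling through PI3K, mTOR and MYC also feeds into many of the same genes, and a receptor kinase such as ALK lies upstream of those routes.

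The arrays were alike in correlation and control ratios but not in every measure. Pearson's r over tested genes was 0.992 to 0.997 within groups and 0.972 to 0.992 between groups. The ratio of 3' to 5' control intensities was 0.844 to 0.993 for GAPDH and 0.988 to 1.07 for ACTB. The median log2 value of tested genes was 8.75 in replicate 2 of 4 mg/kg and 8.56 to 8.65 in the other arrays. The 18S ribosomal RNA control (its 5' probe set) read 1713 and 4058 in the vehicle arrays against 374 to 637 in the 4 treated arrays. This control moved with treatment, and its part in the results was not tested. DUSP6, a phosphatase that follows ERK activity, read 13346 and 12806 with vehicle, 11041 and 8490.1 at 4 mg/kg, then 312 and 279 at 20 mg/kg. Its lowest values were in the arrays labelled 20 mg/kg. All intensities are on the linear scale of the deposited table, whose lowest value was 4.58.

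In the tumours given 20 mg/kg, the transcripts of hexokinase HK2, glucose transporter SLC2A3, the vasodilator peptide ADM and the lipase inhibitor ANGPTL4 fell, by 2.23-fold to 4.85-fold. These are the 4 of the 35 tested members called lower, and no member was called higher. SLC2A3 and ANGPTL4 passed the level filter only through their vehicle arrays, with mean log2 values under 4 at both doses, so they could enter the test only by being lower there. Their calls therefore add nothing to the count, whereas HK2 and ADM lay above the filter in every group. By limma with Benjamini-Hochberg adjustment over all tested genes, 4.33% of them were called at this dose, 2.07% lower and 2.26% higher. At an unadjusted p under 0.05 by limma, 19 members were lower and 1 was higher, against 1182 lower and 1304 higher of all 10271 genes. The members were chosen with earlier results of these data known, so their counts beside all genes are descriptive only. At 4 mg/kg, HK2 and ANGPTL4 were called lower, 2 of 35 members, where 0.0584% of all tested genes were called and 0.0292% called lower. Here too ANGPTL4 had entered the test only through its vehicle arrays. HK2 was the 1 member that passed the test between 4 and 20 mg/kg, where 0.37% of all tested genes were called and 0.243% called lower. Between the doses, 13 members were lower without overlap (22.8% of all tested genes) and 8 were higher (13.6%). With arrays centred these were 9 (19.2%) and 7 (24.2%), and after quantile normalization 12 (22.3%) and 10 (22.7%). Both comparisons with vehicle use the same vehicle arrays, so their values are given side by side and are not independent.

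Most other members read below vehicle in both arrays of a dose without passing the test. At 20 mg/kg, 25 of 35 members had both arrays below both vehicle arrays, against 25.9% of all tested genes, and 2 members (ERO1A and GAPDH) had both above, against 24.5%. At 4 mg/kg, 25 members again lay below without overlap, against 14.8% of all tested genes, and 1 (HIF1A) lay above, against 22.8%. The median log2 change of the members was -0.34 at 20 mg/kg and -0.30 at 4 mg/kg, and that of all tested genes was 0.00 at both doses. Both counts of 25 and both member medians include SLC2A3 and ANGPTL4, which entered the test only through their vehicle arrays. The shares without overlap depend on how the arrays are scaled, and GAPDH overlapped vehicle at 20 mg/kg in both other scalings. With each array centred on its median, 32 members lay below at 4 mg/kg, but so did 49.1% of all tested genes. After a further quantile normalization, 27 members and 36.6% of all genes did so.

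Glucose enters the cell through the SLC2A transporters. SLC2A1, the widespread basal transporter GLUT1, read 1168 and 1093 with vehicle, 994 and 981 at the low dose and 994 and 952 at the high dose. The treated arrays lay below vehicle, but the log2 change was only -0.22 at 20 mg/kg and -0.19 at 4 mg/kg and did not pass the test. SLC2A3, the high-affinity transporter GLUT3, read 41.4 and 47.0 with vehicle, 13.8 and 14.2 at 4 mg/kg, then 14.2 and 13.8 at 20 mg/kg. Both doses gave the same low level, in the dim range of the table, with no overlap with vehicle. The mean log2 value was 5.46 with vehicle and 3.81 at each dose, so only the vehicle arrays carried the gene past the filter. SLC2A3 fell by 1.66 on the log2 scale at 20 mg/kg (limma SE 0.07, adjusted p = 0.0119), 3.16-fold on the fitted scale. With log2(value + 16), which shrinks dim differences, the change was -1.004 at 20 mg/kg (limma adjusted p = 0.0158). At 4 mg/kg the fitted change was as large, -1.66, with an adjusted p by limma of 0.0538. The call at 20 mg/kg was lost without replicate 1 or replicate 2 of that dose (adjusted p by limma 0.0827 and 0.0823), and with the mean of all SLC2A3 probe sets (log2 change -1.23, adjusted p by limma 0.113).

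Hexokinase traps glucose as glucose 6-phosphate. HK2, the inducible isoform bound to mitochondria in many tumours, read 1670.2 and 1644 with vehicle, 853 and 853 at the low dose and 351 and 332 at the high dose. Each step of dose lay wholly below the one before. HK2 fell by 2.28 on the log2 scale at 20 mg/kg (SE 0.04, limma adjusted p = 0.00757), 4.85-fold, and by 0.96 at 4 mg/kg (SE 0.04, adjusted p = 0.0485), 1.94-fold. Between the doses it fell by 1.32 (SE 0.04, limma adjusted p = 0.0211), 2.50-fold, a call lost without either vehicle array, replicate 2 of 4 mg/kg or either 20 mg/kg array (limma adjusted p = 0.0716 to 0.112). The call at 20 mg/kg against vehicle held in each setting run for it, including each array left out, but with the mean of all HK2 probe sets, of which 2 lie under the filter, the change was only -0.76. The call at 4 mg/kg was lost in 12 of 16 alternatives (limma adjusted p up to 0.186), among them no level filter (0.0700), the mean of all probe sets (0.0895), vehicle replicate 2 left out (0.106) and either 20 mg/kg array left out (0.174). It held with arrays centred, without sets that may cross-hybridise, and without replicate 1 of vehicle or of 4 mg/kg. HK1, the constitutive isoform, read 975 and 1580.2 with vehicle, 967 and 1103 at 4 mg/kg, then 739 and 749 at 20 mg/kg. Its 20 mg/kg arrays were the lowest, its vehicle arrays differed widely, and the change of -0.74 (SE 0.27, limma adjusted p = 0.215) did not pass.

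The next steps rearrange the sugar and commit it. GPI, which turns glucose 6-phosphate into fructose 6-phosphate, read 6089 and 6295 with vehicle, 3603 and 4610 at the low dose and 5026 and 4269 at the high dose. All treated arrays were below vehicle, and the doses overlapped. Of the 3 subunits of phosphofructokinase, the committing enzyme, PFKP (the platelet-type subunit) read 3398 and 5398 with vehicle, 2026 and 2614 at 4 mg/kg, then 1913 and 1951 at 20 mg/kg. Its change was -1.15 at 20 mg/kg (SE 0.28, limma adjusted p = 0.120) and -0.90 at 4 mg/kg (adjusted p = 0.260), and its vehicle arrays differed widely. PFKL, the liver-type subunit, read 802 and 1002 with vehicle, 733 and 671 at the low dose and 656 and 661 at the high dose. PFKM, the muscle-type subunit, overlapped in all groups, from 557 to 870.0 at 4 mg/kg alone.

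PFKFB3 makes fructose 2,6-bisphosphate, the strongest activator of phosphofructokinase. It read 1841 and 1486 with vehicle, 1262 and 1188 at 4 mg/kg, then 967 and 743 at 20 mg/kg. The groups stepped down without overlap, and the change at 20 mg/kg was -0.96 (SE 0.18, limma adjusted p = 0.0844). PFKFB4, a related kinase-phosphatase, read 9.06 to 9.82 over the 6 arrays and was too dim to test. TIGAR, which removes fructose 2,6-bisphosphate and belongs to a list of other glycolytic genes described further on, also fell at 20 mg/kg.

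On their brightest probe sets, the steps from aldolase to phosphoglycerate mutase had log2 changes against vehicle from -0.34 to 0.06 over both doses. ALDOA, which splits the 6-carbon sugar, read 13153 and 15448 with vehicle, 12113 and 11559.6 at 4 mg/kg, then 11577 and 12470.0 at 20 mg/kg, so all treated arrays were below vehicle. TPI1, which interconverts the triose products, read 18565 and 20067 with vehicle, 17036 and 17290.2 at the low dose and 16169 and 16599 at the high dose. The brightest TPI1 set stepped down at each dose, by 1.18-fold at 20 mg/kg against vehicle. A second set, nearly as bright, read 17562 and 18342 with vehicle, 14732 and 17039.5 at 4 mg/kg, then 16239 and 14731 at 20 mg/kg. There the treated arrays lay below vehicle and the doses overlapped. GAPDH, which takes the next oxidation step and whose brightest set is an array control, read 33590.2 and 32926 with vehicle, 32290.4 and 33630.1 at 4 mg/kg, then 35719 and 33638 at 20 mg/kg. The dimmer GAPDH sets had changes from 0.14 to 0.45 at 20 mg/kg and from -0.06 to 0.19 at 4 mg/kg. Replicate 1 of 20 mg/kg was the highest array in each, and none passed the test. PGK1, which makes the first ATP of the pathway, read 26489 and 27410.1 with vehicle, 22241 and 21653 at 4 mg/kg, then 24437 and 22367 at 20 mg/kg. The lowest pair of PGK1 was the one at 4 mg/kg. A pair of dimmer PGK1 sets differed more, by -0.75 and -0.47 at 20 mg/kg and by -0.73 and -0.43 at 4 mg/kg, below vehicle without overlap and without passing the test. Another dimmer set read -0.18 at 20 mg/kg, where it overlapped vehicle, and -0.22 at 4 mg/kg. The dimmest PGK1 set past the filter read -0.47 at 20 mg/kg and -0.58 at 4 mg/kg, without overlap and without passing. PGAM1, which moves the phosphate of 3-phosphoglycerate, read 10740 and 11126 with vehicle, 9960.2 and 10988 at the low dose and 8729 and 8548 at the high dose. It lay below both other groups only at 20 mg/kg. ALDOC, the brain-type aldolase, read 4.58 to 4.71, at the floor of the table.

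Enolase makes phosphoenolpyruvate. ENO1, its widespread form, read 34035 and 36132 with vehicle, 31203 and 32798 at 4 mg/kg, then 25832 and 27679 at 20 mg/kg. The groups stepped down without overlap, and the change at 20 mg/kg of -0.39 (SE 0.06, limma adjusted p = 0.0582) did not pass. ENO2, the neuronal form also induced by hypoxia, read 1470.3 and 1978 with vehicle, 754 and 1039 at the low dose and 1224 and 965 at the high dose. Here both doses lay below vehicle and overlapped each other. PKM, the pyruvate kinase that makes the second ATP, read 23773 and 26846 with vehicle and 18703 to 21836 in the treated arrays.

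Pyruvate then goes to lactate or to the mitochondrion. LDHA, which makes lactate and is a textbook hypoxia target, read 27091 and 27669 with vehicle, 24485 and 25565 at 4 mg/kg, then 30928 and 27008 at 20 mg/kg. The 4 mg/kg arrays were the lowest, and the 20 mg/kg arrays overlapped vehicle. PDK1, the kinase that shuts off pyruvate dehydrogenase in hypoxic cells, read 541 and 822 with vehicle, 508 and 602 at the low dose and 250.3 and 268 at the high dose. Both arrays at 20 mg/kg were below all other arrays, while 4 mg/kg overlapped vehicle. The change of PDK1 was -1.37 at 20 mg/kg against vehicle (SE 0.24, limma adjusted p = 0.0761) and -1.10 against 4 mg/kg (adjusted p = 0.204). A second, dimmer PDK1 probe set read 35.2 in every array except replicate 2 of 4 mg/kg (34.7). With nearly all values tied, it carries little information on this difference. PDK3, a related kinase, overlapped in all groups, from 212 to 344.

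**Figure D1:**
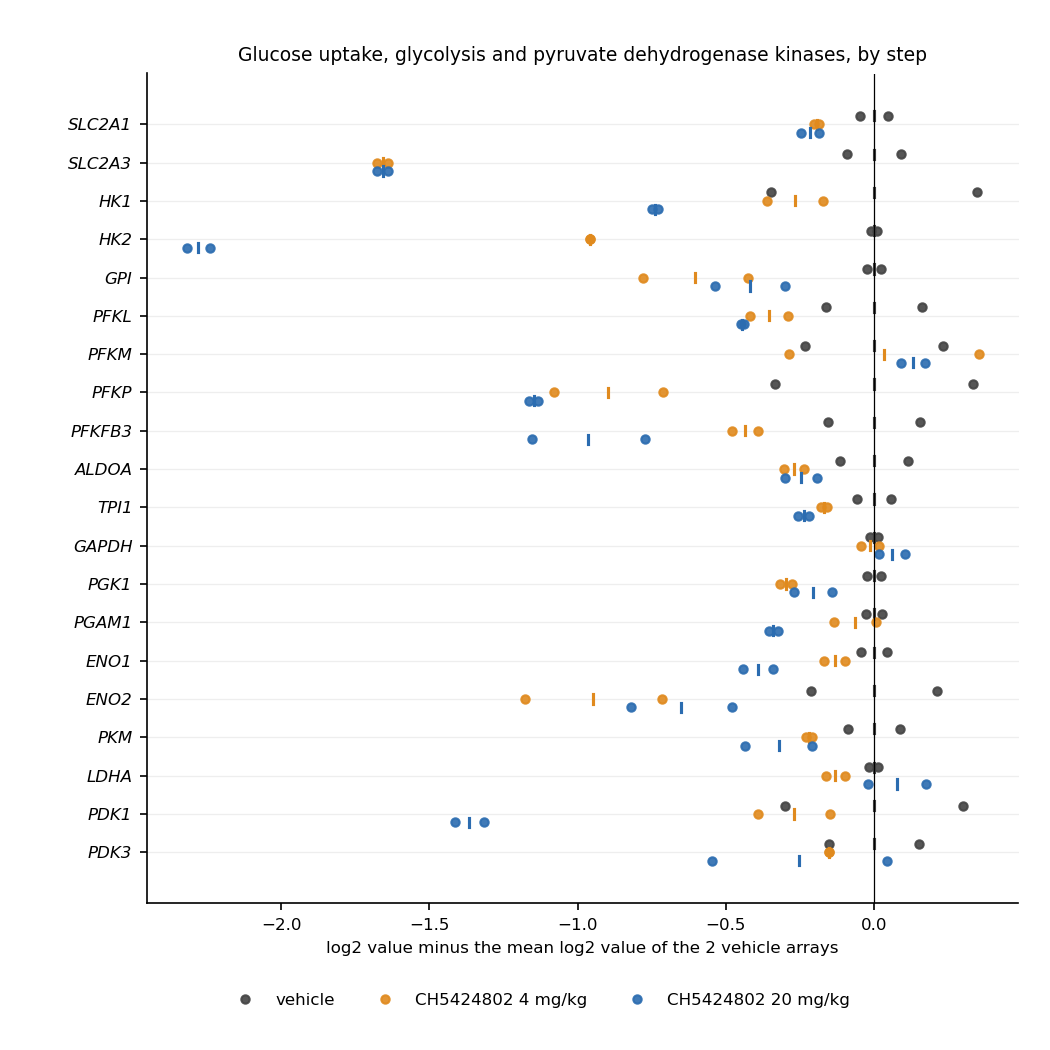
Log2 value of each array minus the mean log2 value of the vehicle arrays, for the 20 tested members from glucose uptake to pyruvate dehydrogenase kinase in the order of the pathway, with ticks at group means. HK2 and SLC2A3 lie far to the left, with HK2 lower again at 20 mg/kg and SLC2A3 equal at both doses, while GAPDH and LDHA lie close to 0.

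The regulators of the hypoxia response itself differed in their behaviour. HIF1A, the oxygen-regulated alpha subunit, read 25355 and 19759 with vehicle, 25805 and 27781 at 4 mg/kg, then 19589 and 21284 at 20 mg/kg. Its mRNA was highest at 4 mg/kg and overlapped vehicle at 20 mg/kg, and no difference passed the test. Its control is mainly at the protein, which was not measured. EGLN1, the main oxygen sensor, overlapped in all groups between 1413 and 1602. EGLN3, a sensor that is itself induced by hypoxia-inducible factor, read 1229 and 1238 with vehicle, 701 and 640.2 at the low dose and 635 and 386 at the high dose. It stepped down without overlap, with changes of -1.32 at 20 mg/kg (SE 0.27, limma adjusted p = 0.0936) and -0.88 at 4 mg/kg (adjusted p = 0.252). A dimmer second EGLN3 set read 861 and 449 with vehicle, 350 and 292 at 4 mg/kg, then 404 and 194 at 20 mg/kg. On that set the doses overlapped and the vehicle arrays differed widely.

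ADM and ANGPTL4, both secreted, were the members of this branch called lower. EGLN3 (-1.32) and NDRG1 (-1.20) had changes of similar size at 20 mg/kg, below vehicle without overlap, and did not pass. ADM, which encodes adrenomedullin, read 899.8 and 978 with vehicle, 335 and 397 at 4 mg/kg, then 406 and 406 at 20 mg/kg. All treated arrays were far below vehicle, and the 4 mg/kg pair was slightly the lower. ADM fell by 1.21 on the log2 scale at 20 mg/kg (SE 0.10, limma adjusted p = 0.0266), 2.31-fold. At 4 mg/kg the change was -1.36 (adjusted p by limma 0.0851). The call at 20 mg/kg was lost when either vehicle array (limma adjusted p = 0.0524 and 0.105) or either 20 mg/kg array (0.146 and 0.125) was left out, with no level filter (0.0943) and in the fit with a replicate block (0.0585).

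ANGPTL4, angiopoietin-like 4, inhibits lipoprotein lipase. It read 27.8 and 26.3 with vehicle, 12.7 and 12.7 at the low dose and 12.1 and 12.1 at the high dose. The pairs were very close to each other and the gene is dim, with a mean log2 value of 4.01 beside the filter at 4. Its means were 4.76 with vehicle, 3.67 at the low dose and 3.60 at the high dose, so it entered the test only through vehicle. ANGPTL4 fell by 1.16 at 20 mg/kg (SE 0.03, limma adjusted p = 0.0104), 2.23-fold, and by 1.09 at 4 mg/kg (SE 0.03, adjusted p = 0.0485), 2.12-fold, both on the fitted scale. With log2(value + 16) the changes were -0.61 and -0.58. Without either 20 mg/kg array the adjusted p by limma at 20 mg/kg was 0.0752 and 0.0697. The call at 4 mg/kg was lost in 10 of 14 alternatives (limma adjusted p up to 0.186), among them log2(value + 16) (0.0557) and the fits that left out vehicle replicate 2 (0.106), replicate 2 of 4 mg/kg (0.0856) or either 20 mg/kg array (0.174). VEGFA, the main vessel growth factor, overlapped in all groups on its brightest probe set, at 7468 and 6001 with vehicle, 6165 and 7409 at 4 mg/kg, then 8339 and 6743 at 20 mg/kg.

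Of the 4 members called lower at 20 mg/kg, 3 include exactly equal values. HK2 and ANGPTL4 had equal values in both 4 mg/kg arrays, and ADM and ANGPTL4 in both 20 mg/kg arrays. A tie leaves that group with no spread in the fit: 32.3% of all tested genes and 4 of 35 members had one in at least 1 group. The fourth such member was PDK3.

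**Figure D2:**
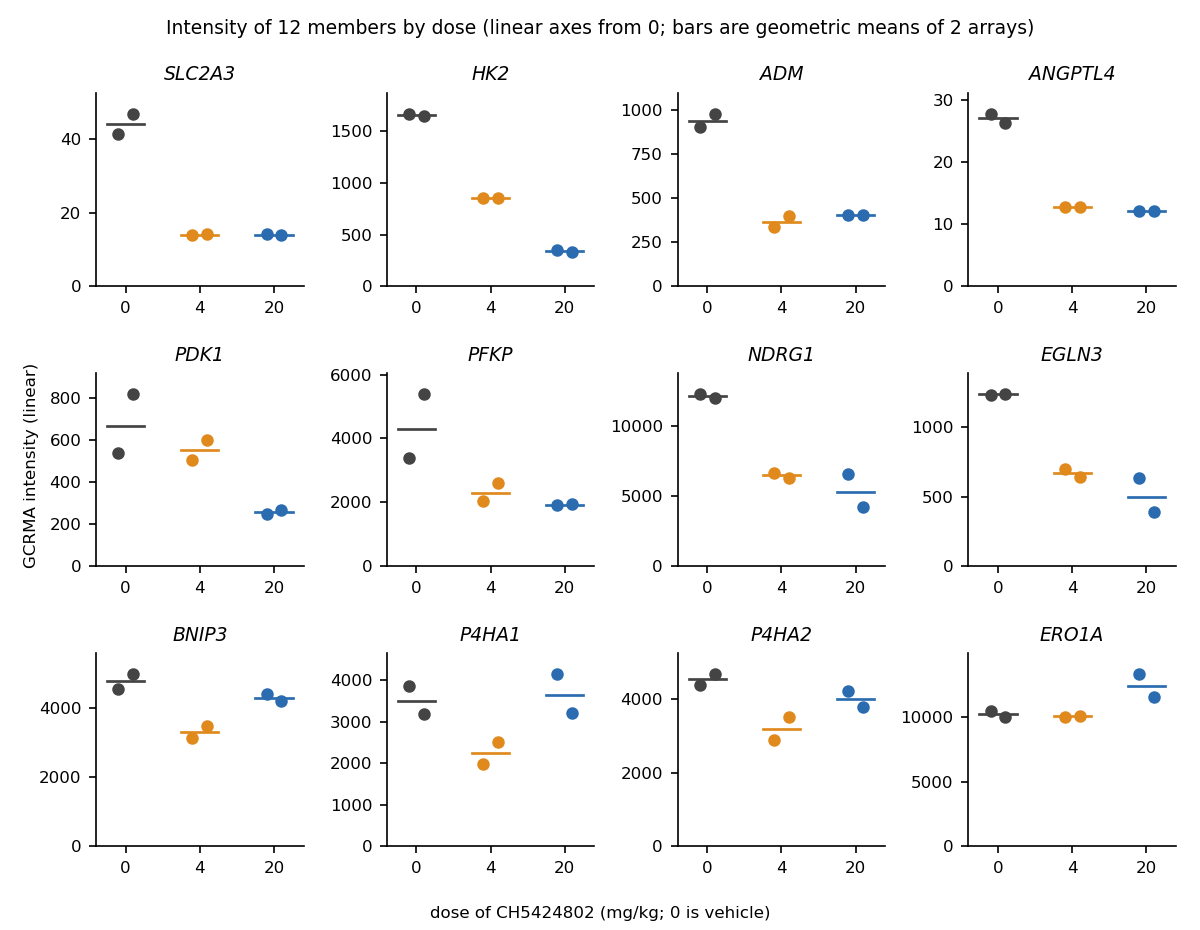
Deposited intensity of each array, on linear axes from 0, for 12 members with 1 panel per gene and vehicle, 4 and 20 mg/kg from left to right, with bars at the geometric mean of each group. HK2 steps down from 1670.2 and 1644 to 351 and 332, whereas SLC2A3, ADM and ANGPTL4 are low at both doses.

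The remaining targets covered acid balance, mitophagy, collagen and folding enzymes. CA12, a membrane carbonic anhydrase, read 2656 and 2968 with vehicle, 2423 and 2537 at the low dose and 2009 and 1839 at the high dose. CA12 stepped down with no overlap, and the change at 20 mg/kg was -0.55 (SE 0.08, limma adjusted p = 0.0580). BNIP3 and BNIP3L are receptors that mark mitochondria for mitophagy. BNIP3 read 4576 and 5004 with vehicle, 3151 and 3492 at 4 mg/kg, then 4412 and 4214 at 20 mg/kg, so the low dose was the lowest. Its dimmer second probe set read 1509 and 1854 with vehicle, 849 and 959 at 4 mg/kg, then 988 and 959 at 20 mg/kg, where the doses no longer separated. BNIP3L read 6173 and 6712 with vehicle, 4339 and 5263 at the low dose and 6489.9 and 4886 at the high dose.

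P4HA1 and P4HA2, the catalytic subunits of collagen prolyl hydroxylase, were, like BNIP3, lowest at 4 mg/kg. P4HA1 read 3859 and 3193 with vehicle, 1989.6 and 2523 at 4 mg/kg, then 4157 and 3211 at 20 mg/kg. P4HA2 read 4385 and 4685 with vehicle, 2879 and 3511 at the low dose and 4211 and 3781 at the high dose. The arrays at 20 mg/kg were higher than those at 4 mg/kg in both genes, with changes of 0.71 for P4HA1 (SE 0.21, limma adjusted p = 0.305) and 0.33 for P4HA2 (SE 0.13, adjusted p = 0.418). ERO1A, which reoxidises protein disulfide isomerase in the endoplasmic reticulum, read 10461 and 9983 with vehicle, 9976 and 10093 at 4 mg/kg, then 13313 and 11545 at 20 mg/kg. It was highest at 20 mg/kg.

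NDRG1, a stress-induced protein often used as a hypoxia marker, read 12267 and 11986 with vehicle, 6656 and 6286 at the low dose and 6595 and 4240.2 at the high dose. All treated arrays were well below vehicle, the spread at 20 mg/kg was wide, and the change of -1.20 (SE 0.24, limma adjusted p = 0.0886) did not pass. KDM3A, a histone demethylase induced by hypoxia, read 1639 and 1628 with vehicle, 1127 and 1224 at 4 mg/kg, then 1308 and 1201 at 20 mg/kg. ANKRD37, a small ankyrin-repeat protein and known hypoxia target, read 956 and 1146 with vehicle, 639.6 and 614 at the low dose and 711 and 608 at the high dose. Both genes lay below vehicle at each dose and overlapped between the doses.

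**Figure D3:**
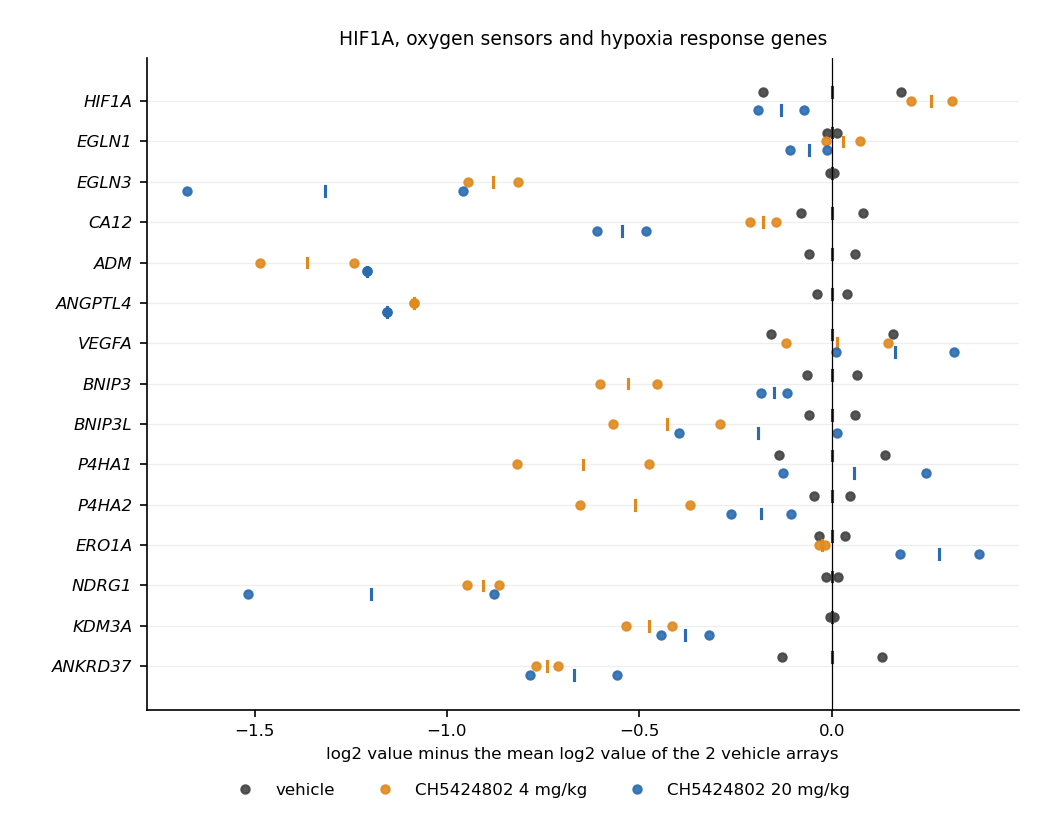
Log2 value of each array minus the mean log2 value of the vehicle arrays, for HIF1A, the oxygen sensors and hypoxia targets, with ticks at group means. ADM, ANGPTL4, EGLN3 and NDRG1 lie lowest, and BNIP3, P4HA1 and P4HA2 are lower at 4 mg/kg than at 20 mg/kg.

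The members fell into different dose shapes. With no overlap between neighbouring groups, 9 of 35 members stepped down from vehicle to 4 mg/kg to 20 mg/kg, against 5.24% of all tested genes: ANGPTL4, CA12, EGLN3, ENO1, HK2, PFKFB3, PFKL, PFKP and TPI1. Among them, ANGPTL4 entered the test only through its vehicle arrays. The step between the doses was small in TPI1 (-0.07), ANGPTL4 (-0.07) and PFKL (-0.09). These shapes are those of the brightest probe sets. On the next brightest set past the filter, the doses overlapped in TPI1, PFKL and EGLN3. In CA12, 4 mg/kg overlapped vehicle on that set, while ENO1 stepped down there too. No member stepped up, against 4.61%. In 6 of 35 members the 4 mg/kg arrays lay below both other groups, against 2.85% of all tested genes: ADM, BNIP3, LDHA, P4HA1, P4HA2 and PGK1. The share of all genes with that shape was 11% when arrays were centred (7 members) and 9.04% after quantile normalization (9 members), and with either scaling PGK1 was no longer among them. HIF1A alone was highest at 4 mg/kg, against 8.24% of all tested genes, and overlapped vehicle once arrays were centred. In all 3 scalings HK2, ENO1, PFKFB3, PFKP and CA12 stepped down, and ADM, BNIP3, LDHA, P4HA1 and P4HA2 were lowest at 4 mg/kg.

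The glycolytic steps and the hypoxia branch are given side by side. The 20 tested glycolytic members had a median log2 change of -0.37 at 20 mg/kg and -0.27 at 4 mg/kg, and 16 and 14 of them lay below vehicle without overlap. The 15 tested sensors and targets had medians of -0.19 and -0.51, with 9 and 11 below without overlap. The branch counts include SLC2A3 (glycolytic) and ANGPTL4 (hypoxia target), which entered the test only through their vehicle arrays. Of all tested genes, 25.9% lay below at 20 mg/kg and 14.8% at 4 mg/kg, shares that were 31.7% and 49.1% with arrays centred. The difference between these branches was not tested.

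**Figure D4:**
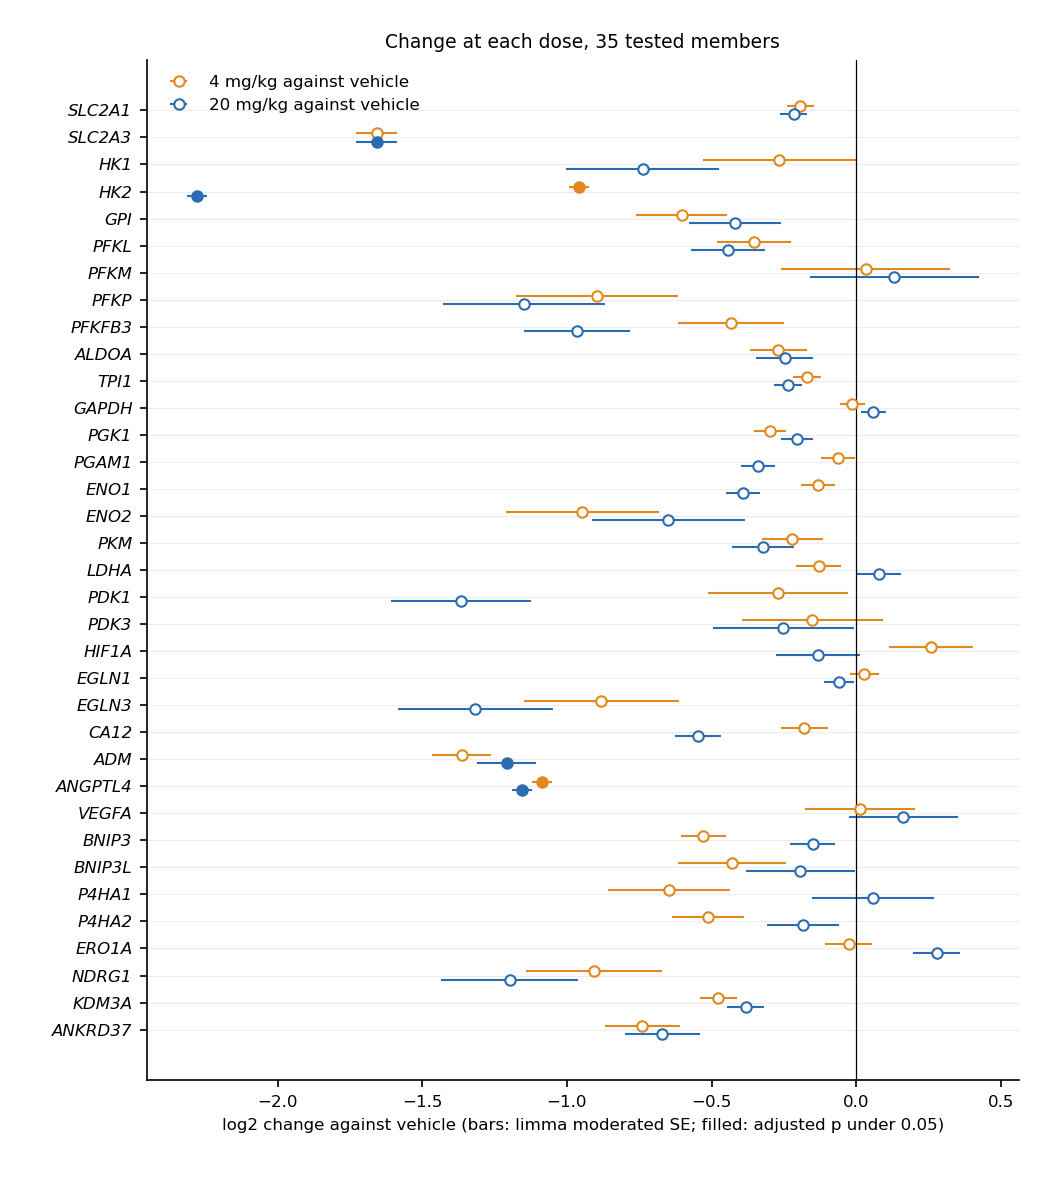
Fitted log2 change against vehicle at 4 mg/kg and at 20 mg/kg for each of the 35 tested members, with limma SE bars and filled points for adjusted p under 0.05. Both comparisons share the vehicle arrays. HK2 lies at -0.96 and -2.28, SLC2A3 at -1.66 and -1.66, and P4HA1 at -0.65 and 0.06.

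Different probe sets of 1 gene did not always behave alike. Of the members, 16 had at least 2 probe sets past the level filter. All such sets of a gene had the same sign of change in 9 of these genes at 4 mg/kg and 10 at 20 mg/kg. An unchanged set counts as a different sign here. That is the only disagreement in ENO1 at both doses and in PDK1 at 20 mg/kg. VEGFA read 0.01 and 0.16 on its brightest set at 4 and 20 mg/kg. Its other 3 sets read -0.93, -0.77 and -1.08 at the low dose. At the high dose they read -0.74, -0.65 and -0.71. In those sets both doses lay below vehicle without overlap, but none passed the test in a fit of every probe set (limma adjusted p from 0.0952 to 0.231). BNIP3L read -0.43 and -0.19 on its brightest set and 0.33 and 0.57 on its second. That second set read 4487 and 4438 with vehicle, 5549 and 5644 at 4 mg/kg, then 7065 and 6237 at 20 mg/kg, a step up without overlap (limma adjusted p at 20 mg/kg of 0.0505). ERO1A read 0.28 at 20 mg/kg on its brightest set and -0.42 on its second. The dimmer CA12 sets read -0.38, -1.23, -1.20 and -0.98 at 20 mg/kg, the same direction as its brightest.

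**Figure D5:**
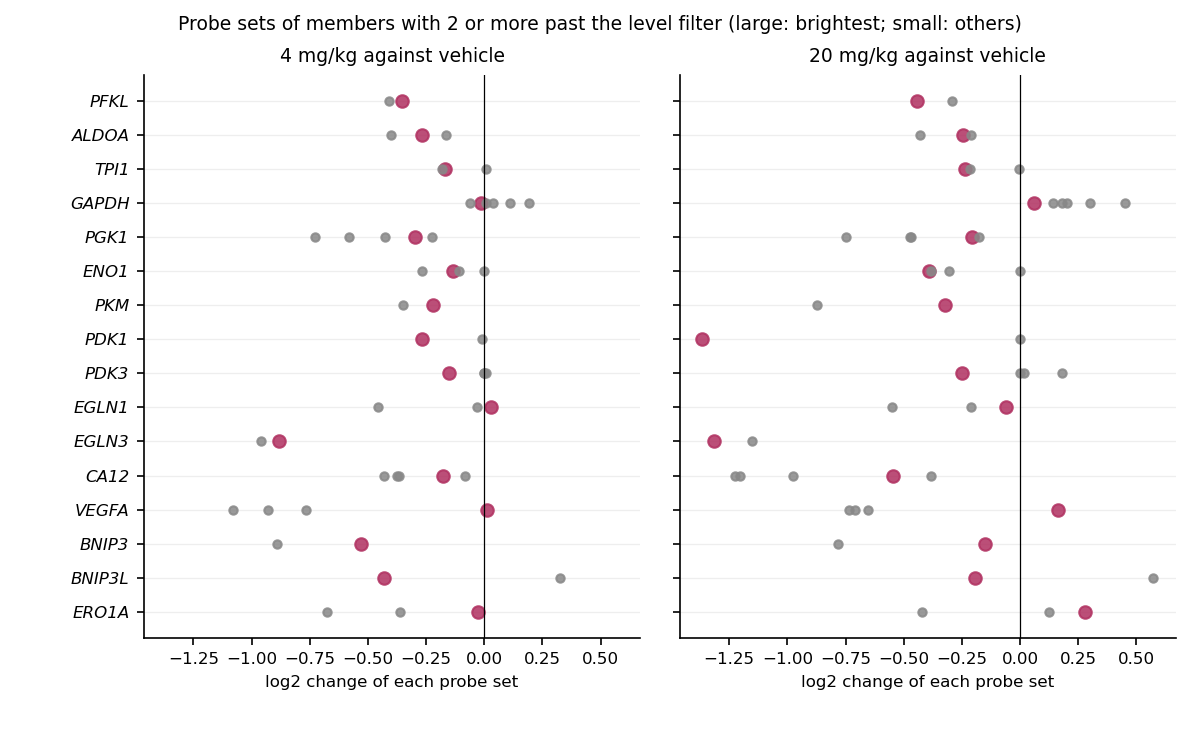
Log2 change against vehicle of every probe set past the level filter for the members that have at least 2, with the brightest set marked, at 4 mg/kg and at 20 mg/kg. At 20 mg/kg the VEGFA, BNIP3L and ERO1A sets spread to both sides of 0, and the CA12 sets all lie below it.

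Genes next to the members were compared by lists. Of 31 other glycolytic, pyruvate and lactate genes, 19 were tested, and TIGAR was the 1 called lower at 20 mg/kg. It read 276 and 264 with vehicle, 277 and 332 at the low dose and 145 and 147 at the high dose. TIGAR fell by 0.89 on the log2 scale (SE 0.10, limma adjusted p = 0.0403), 1.85-fold, and the call was lost without either vehicle array (adjusted p = 0.0894 and 0.141) or either 20 mg/kg array (0.190 and 0.163). The median of that list was 0.00 at 20 mg/kg and 0.16 at 4 mg/kg, while the median of the members was -0.34 and -0.30. Of 16 pentose phosphate and glycogen genes, 13 were tested and none was called by limma in any comparison (at an unadjusted p under 0.05, 4 were lower and 2 higher at 20 mg/kg, and 1 each way in both other comparisons). GBE1, the glycogen branching enzyme, read 1145 and 891 with vehicle and 2079 and 1838 at 20 mg/kg (0.95, SE 0.17, limma adjusted p = 0.0780). PGM1 and UGP2, with the next smallest p at that dose, were lower, by -0.69 and -0.32 (limma adjusted p = 0.0839 and 0.149). Of 16 oxygen-sensing and regulator genes, 12 were tested and none was called by limma in any comparison (at an unadjusted p under 0.05, 4 were lower and 1 higher at 20 mg/kg, 1 each way at 4 mg/kg, and 2 lower between the doses). CREBBP, a coactivator of hypoxia-inducible factor, read 1223 and 916 with vehicle, 1791 and 2140.0 at 4 mg/kg, then 2458 and 2556 at 20 mg/kg (1.24, SE 0.18, limma adjusted p = 0.0568). Over the alternatives run for it, the CREBBP change at 20 mg/kg ranged from 0.35 to 1.45. ELOB and EPAS1, with the next smallest p at that dose, were lower, by -0.21 and -0.74 (limma adjusted p = 0.131 and 0.163). Of all 10271 tested genes, 1182 were lower and 1304 higher at an unadjusted p under 0.05 by limma at 20 mg/kg. At 4 mg/kg these were 489 and 1256, and between the doses 903 and 475.

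Of 36 other hypoxia response genes, 31 were tested. At 20 mg/kg 5 of them were called lower and none higher, with 2.07% of all tested genes called lower. No gene of the list was higher at an unadjusted p under 0.05. The list was chosen with earlier results of these data known, so its counts beside all genes are descriptive only. At 4 mg/kg none was called by limma, although 16 were lower and none higher at an unadjusted p under 0.05. Of all 10271 tested genes, 489 were lower and 1256 higher at that threshold. MAFF, a small MAF factor, read 262 and 339 with vehicle, 143 and 147 at the low dose and 32.5 and 33.7 at the high dose. It stepped down without overlap. MAFF fell by 3.17 at 20 mg/kg (SE 0.14, limma adjusted p = 0.0119) with a further change of -2.13 between the doses (SE 0.14, adjusted p = 0.0462), a call lost whichever array was left out (0.0658 to 0.207). BHLHE40, a hypoxia-induced repressor, fell by 2.16 at 20 mg/kg (SE 0.16, limma adjusted p = 0.0231), from 4524 and 5651 to 1244 and 1029. ERRFI1, a feedback inhibitor of EGFR, fell by 1.96 (SE 0.20, adjusted p = 0.0350 by limma), from 7840.2 and 7977 to 2449 and 1695. STC1 and STC2, the stanniocalcins, fell by 1.08 and 1.45 (SE 0.08 and 0.14, limma adjusted p = 0.0225 and 0.0333). Over all alternatives run for each, the call was lost in 10 of 16 for BHLHE40 (limma adjusted p up to 0.240), 9 of 17 for STC2, 8 of 16 for STC1 and for ERRFI1, and 5 of 16 for MAFF. By limma, MAFF lost its call without either 4 mg/kg or either 20 mg/kg array (adjusted p = 0.0504 to 0.0827), and STC2 whichever array was left out (0.0561 to 0.120). BHLHE40 lost it except without vehicle replicate 1 (limma adjusted p = 0.0726 to 0.101), and STC1 (0.0508 to 0.0936) and ERRFI1 (0.0591 to 0.136) except without replicate 1 of 20 mg/kg.

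Markers of the tumour epithelium and of other cell types were read from the same arrays. Of the 12 epithelial markers all were tested, and KRT18, a keratin of simple epithelia, was the 1 called lower at 20 mg/kg. It fell by 1.54 (limma adjusted p = 0.0416), a call lost whichever array was left out. At an unadjusted p under 0.05 by limma, 4 of the 12 were lower and 1 was higher, against 1182 lower and 1304 higher of all 10271 genes. Of the 12 markers, 8 had a negative and 4 a positive change. Their summed intensity was 101898 to 113418 with vehicle, 107678 to 110007 at 4 mg/kg and 91423 to 98399 at 20 mg/kg. Of the fibroblast markers 4, of the endothelial 2, and of the leukocyte and red cell lists 1 each were tested, and none was called by limma in any comparison (none at an unadjusted p under 0.05). The summed intensity of 6 fibroblast markers was 36009 to 38573 with vehicle and 35251 to 39710 in the treated arrays, so the groups overlapped. COL1A1 alone read 31585 to 36324 and makes up most of that sum. At 20 mg/kg the changes were -0.02 for COL1A1, 0.28 for COL1A2 and 0.29 for COL3A1, while DCN read the same in every array. The sums of the endothelial list (450.3 to 557, mostly PECAM1) and the leukocyte list (73.4 to 77.3) were far dimmer. LUM, PDGFRB, CDH5, VWF, TEK, PTPRC and CSF1R lay within 1 log2 unit of the floor in every group. The part of the epithelial sum in the results was not tested.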

How the data were processed

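RNA from NCI-H2228 xenograft tumours was measured on 6 Affymetrix arrays, 2 per group. The authors deposited linear intensity values. The submitters' processing notes name GCRMA and R 2.10.0. Which arrays were normalized together and the genome build are not given in the sources used here. Gene names came from the platform annotation, in which SLC16A3 and CA9 had no probe set of 1 gene. It lists 1 gene for 41097 of 54675 probe sets, several genes for 1801 and none for 11777.

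Intensities were converted to log2 with no pseudocount. Each gene was read from the brightest of its single-gene probe sets, provided its mean log2 was at least 4. All 6 arrays entered 1 linear model in limma 3.58.1 under R 4.3.3 (lmFit, then eBayes, 2-sided tests, 3 residual and 0.723 prior degrees of freedom), with p-values adjusted over all 10271 genes by Benjamini-Hochberg, threshold 0.05. Each SE pools the spread of all 3 groups. The fit was tested on simulated data. The number of arrays limits the precision.

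All members may be named. Of the other lists, genes that passed in any comparison are named, and otherwise up to 3 a list with the smallest p at 20 mg/kg. The members and lists were chosen with earlier results of these data known. Alternatives were the level filter, a pseudocount of 16, the probe set, the scaling, the arrays in the fit, the replicate number as a block, each array left out, and, added after seeing the data, a fit without genes tied in all 3 groups and a test of every probe set.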

Additional observations from a re-analysis of the deposited data

Results flagged for a closer look

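HK2 differed between the doses: its effect against vehicle was larger at 20 than at 4 mg/kg by -1.32 on the log2 scale (SE 0.04, limma adjusted p = 0.0211, lower in 2 of 2 arrays at 20 mg/kg). MAFF, from the list of other hypoxia response genes, differed in the same way, by -2.13 (SE 0.14, limma adjusted p = 0.0462). The HK2 difference lost its call without either vehicle array (limma adjusted p = 0.0759), replicate 2 of 4 mg/kg (0.0716) or either 20 mg/kg array (0.0816 and 0.112), and that of MAFF without each array in turn (0.0658 to 0.207).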

How the results depend on the processing

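Against the 4 members called at 20 mg/kg against vehicle, 12 were called after quantile normalization (14.9% of all tested genes), 14 with arrays centred (19.1%) and 7 without genes tied in all 3 groups (8.41%), against 4.33% of all genes in the reported fit. At 4 mg/kg (2 called), 13 were called with arrays centred (7.46%), 1 after dropping potentially cross-hybridising probe sets, and 0 with no level filter, the stricter filter, log2(value + 16), the mean of probe sets, only the compared arrays or no tied genes. Between the doses (1 called), centring gave 2 (4.81%) and only the compared arrays gave 0. With the next brightest probe set, which 16 members have, 0 were called in all 3 comparisons. None of the 4 called members is among those 16. At an unadjusted p under 0.05, the fits that called 0 by limma had from 2 to 18 members. For counts without a percentage here, the share of all tested genes is not given.

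Leaving out 1 array at a time gave 1 to 6 members called at 20 mg/kg (0.0487% to 7.81% of all tested genes), 0 to 3 at 4 mg/kg (up to 4.62%) and 0 to 1 between the doses (up to 2.12%), with the lone array assumed to vary like the other groups. Only HK2 was called without either 20 mg/kg array. Members below vehicle without overlap (25 at each dose) numbered 11 of 16 at 20 mg/kg and 9 of 16 at 4 mg/kg with the next brightest probe set (25.3% and 15.8% of all genes), and 13 and 11 of 20 without sets that may cross-hybridise (22.3% and 12.3%). They ran from 25 to 28 (25.9% to 40.2%) and from 25 to 32 (14.8% to 35.3%) with 1 array left out. PDK1 was flat on its next brightest probe set (0.00 at 20 mg/kg and 0.010 between the doses), where nearly all arrays held the same value. P4HA1 at 20 mg/kg (0.06, not called) read -0.041 with the mean of probe sets and from -0.13 to 0.24 with 1 array left out. With the replicate block, 3 members were called at 20 mg/kg (ADM was lost), 0 at 4 mg/kg and 0 between the doses. Shares of all tested genes in that fit are not given here. Deviations of same-numbered arrays correlated at 0.15, -0.12 and 0.13, so the numbers are not taken to pair the samples. Dim genes such as ANGPTL4 lie where signal over background limits the size of a change.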

Other observations

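TXNIP and ARRDC4, 2 arrestin-family genes that respond to glucose and restrain its uptake, were singled out after their values were seen. TXNIP read 13461 and 16766 with vehicle, 15154 and 16687 at 4 mg/kg, then 28650 and 21658 at 20 mg/kg (0.73, SE 0.20, limma adjusted p = 0.138). ARRDC4 read 292 and 230.0 with vehicle, 351 and 297 at the low dose and 565 and 534 at the high dose (1.08, SE 0.16, limma adjusted p = 0.0566). Both were highest at 20 mg/kg without overlap, and neither passed the test.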
